A study of Mus musculus with 12 samples.

Results

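Chemokines and their receptors were followed in sorted muscle satellite cells across 4 ages. The members were all genes whose symbol is Ccl, Ccr, Cxcl, Cxcr, Xcl, Xcr or Ackr followed by digits, or starts with Cx3c. A probe set counted where it carried exactly 1 symbol, and each gene was represented by its brightest probe set. By this rule 56 of the 19938 measured genes were members, taken from 61 probe sets. They were 19 C-C ligands, 13 C-X-C ligands, the C-X3-C ligand Cx3cl1, the single-cysteine ligand Xcl1, 18 signalling receptors and 4 atypical receptors. A further 11 RefSeq gene names of the same form, among them Ccl21a and Ccl27a, were not measured by a probe set with 1 symbol.

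Satellite cells are the stem cells of skeletal muscle and carry the transcription factor Pax7. All cells came from C57BL/6 mice heterozygous for Pax7-ZsGreen, in which a green fluorescent protein reports the Pax7 locus, so every stage carried the reporter. Fluorescent cells were sorted from pooled animals: forelimbs and hindlimbs of 4 fetuses at E17.5 (fetal), hindlimbs of 6 mice at postnatal day 21 (adolescent), of 8 mice at 2 to 3 months (adult), and of 8 mice over 1 year old (aged). Each stage had 3 arrays, and the labels do not say whether these were separate pools of animals, so p-values here reflect no more than the scatter of these arrays, and that scatter may be technical. The fetal cells differ from the others in limb as well as in age, and these cannot be told apart.

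Chemokines are small secreted proteins that steer cells along gradients by binding receptors that signal through G proteins. Inflammatory chemokines are switched on in damaged tissue and draw in leukocytes, whereas homeostatic ones such as Cxcl12 hold stem cells and lymphocytes in place. Atypical receptors bind chemokines without G protein signalling and remove or transport them. In muscle, satellite cells and myoblasts carry Cxcr4, and chemokines from resident and invading cells take part in repair.

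Values were log2 signals, so a difference of 1 is 2-fold, and levels are compared only within a gene. A member with no stage mean of 6 or more is called dim, which held for 31 of 56. The dim members were 10 of 19 C-C ligands, 5 of 13 C-X-C ligands, Xcl1, 13 of 18 receptors and 2 of 4 atypical receptors. Just outside the threshold lay Ccl20 (highest stage mean 5.86) and Cxcr1 (5.79), and just inside Cxcl10 (6.03) and Ackr2 (6.06). All 10 satellite cell markers were above the dim threshold. Their mean was 9.38 to 9.42 on the fetal arrays and 10.57 to 10.84 on the later ones. Pax7 is 1 of them, and the cells were sorted on its reporter, so its signal is no separate check of the label. Genes of other cells were also measured above the threshold, so passing it does not single out satellite cells. The 12 fibroblast and fibro-adipogenic markers averaged 7.88 to 8.82 per array. The 10 pericyte and smooth muscle markers averaged 7.74 to 9.14, and 0 markers of either list were dim. The 6 pan-leukocyte markers averaged 6.20 to 7.67 per array, and the endothelial markers 6.72 to 8.83, while all 10 neutrophil markers were dim. In such bulk samples fewer cells of a type and less RNA per cell cannot be told apart.

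Some arrays stood apart from the rest of their stage. Receptors of smell and pheromones, which served as a measure of background, averaged 3.79 to 3.91 on 9 arrays. They reached 4.47 and 4.50 on adult replicates 2 and 3 and 4.31 on aged replicate 1. The mean over the 31 dim members was also higher on adult replicates 2 and 3 than on replicate 1, at 5.02 and 5.03 against 4.66. Adult replicate 1 differed from its own stage in another way, with the proliferation gene Mki67 at 9.28 against 6.58 and 6.44. Aged replicate 1 had lower leukocyte markers than aged replicates 2 and 3, at 6.81 against 7.67 and 7.66. Fetal replicate 1 had higher fibroblast and fibro-adipogenic markers than fetal replicates 2 and 3, at 8.82 against 8.19 and 8.19. Its endothelial markers were higher too, at 7.50 against 6.77 and 6.72. Within every stage replicates 2 and 3 were the closest pair, with correlations over genes of 0.996 to 0.999, against 0.972 to 0.993 for replicate 1 with either. Results that rest on these arrays are given with and without them. Leaving out the 3 arrays of higher background signal leaves adult replicate 1 as the only adult array, whose spread is then assumed to equal that of the other stages.

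Where chemokine genes changed between stages, most were higher in the older cells. Between neighbouring stages the calls were most numerous from fetal to adolescent cells and were all upward after that. From fetal to adolescent cells 10 members rose and 2 fell (12 of 56, 21.4%, against 18.8% of all genes, of which 10.1% rose and 8.68% fell). From adolescent to adult cells 4 rose and 0 fell (7.14% against 19.8%, of which 4.56% rose and 15.2% fell), and from adult to aged cells 6 rose and 0 fell (10.7% against 3.5%). The last step had more higher than lower calls among all genes too, at 3.28% higher and 0.216% lower. Over the whole growth period, adult against fetal, 22 rose and 3 fell (44.6% against 42.5%). In 23 members the F-test over the 4 stages passed (41.1% against 41.6%). These counts depended on single arrays, most of all on adult replicate 1. Without it 25 members rose and 2 fell from adolescent to adult cells (54% of all genes called), 10 rose and 12 fell from adult to aged cells (39.3%), and 36 rose and 3 fell in adult against fetal cells (65%). Without adult replicate 2 or 3 the called members numbered 2, 3 and 16 in these comparisons. Of all genes 9.41% or 9.72%, 1.35% or 1.45%, and 29.7% or 29.9% were then called. Without adolescent replicate 1 or 2 the called members numbered 2 in adult against adolescent (12.4% or 12% of all genes). Without aged replicate 2 they numbered 3 in aged against adult (1.07%). With replicates 2 and 3 averaged into 1 sample per stage the counts were 7, 1, 0 and 10 in the order above. The shares of all genes were then 7.38%, 1.62%, 0.01% and 17.7%, so calls fell among all genes too. With all 12 arrays, the share called was near that of all genes in the first step, in adult against fetal and in the F-test. Rose and fell here and below mean a Benjamini-Hochberg adjusted p under 0.05 over all genes in limma.

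Calls of at least 2-fold numbered 7 (4.97% of all genes) from fetal to adolescent cells, 1 (3.16%) to adult cells, 1 (0.777%) to aged cells and 9 (10.4%) in adult against fetal cells. The 3 arrays of one stage did not overlap those of the other in 19 members (41.6% of all genes), 15 (36%), 10 (16%) and 28 (47.9%), in the same order.

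Of the members called in adult against fetal, 22 rose and 3 fell, while 19.1% of all genes rose and 23.4% fell. The median difference over the 25 members that were not dim was 0.53, against -0.13 over all genes that were not dim. Counting highest stage means, 21 of 56 members peaked in aged cells (37.5% against 22% of all genes) and 6 in fetal cells (10.7% against 28%). A further 26 peaked in adult cells (46.4% against 34.6%), of which 18 were dim, and 3 in adolescent cells (5.36% against 15.4%). The lowest mean was fetal in 34 members (60.7% against 38.3%). The comparisons share arrays, so adult against fetal is not independent of its steps. Centring each array on its median left 22 members called in adult against fetal, 19 higher and 3 lower. It moved the split of all genes from 3806 higher and 4659 lower to 2542 and 5201. For adult against adolescent the same centring moved the split from 909 and 3032 to 517 and 4084. The members' split in adult against fetal was less uneven under other settings. Repeating quantile normalization gave 14 higher and 5 lower (38.9% of all genes called). With the background signal as a covariate 13 were higher and 6 lower (32.2%).

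**Figure D1:**
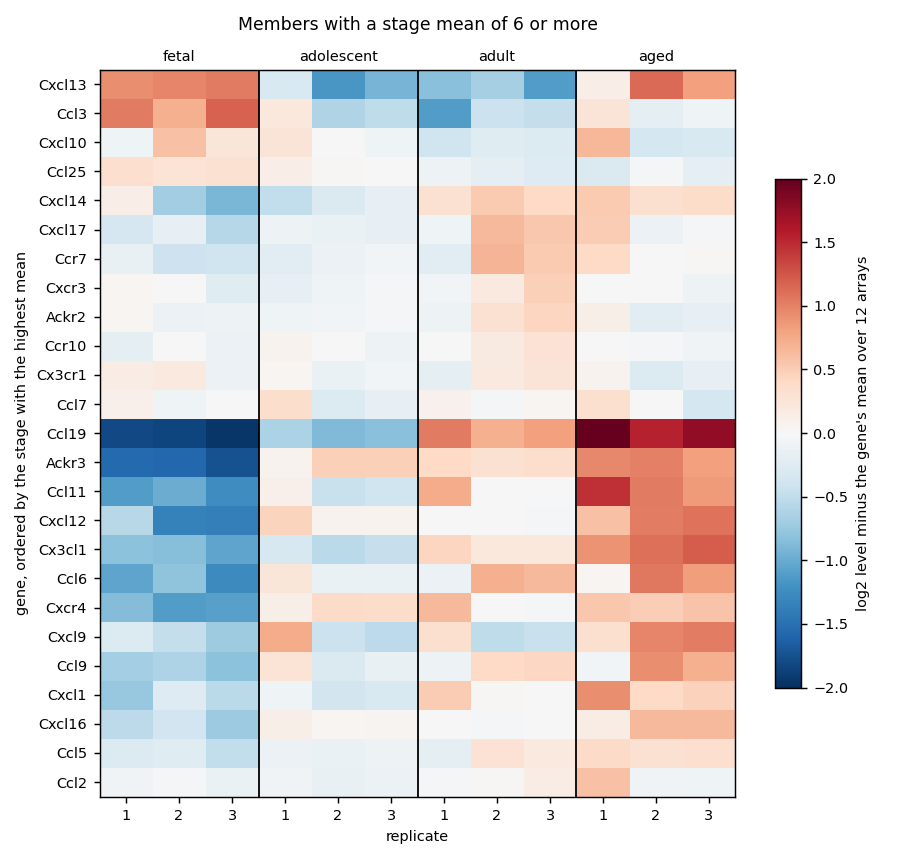
Log2 signal of the 25 members that were not dim on each of the 12 arrays, shown as the difference from the mean of that gene over all arrays, with arrays grouped by stage along the horizontal axis and the colour scale ending at 2 on either side. Ccl19, Ackr3, Cxcr4, Cxcl12, Cx3cl1 and Ccl11 run from low in fetal cells to high in aged cells, while Cxcl13 and Ccl3 are high in fetal cells.

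Cxcl12, its receptor Cxcr4 and its scavenger Ackr3 all rose from fetal to adolescent cells. Cxcl12, the ligand that retains stem cells, read 6.82, 6.03 and 6.01 on the fetal arrays, 7.81, 7.44 and 7.44 on the adolescent, 7.38, 7.38 and 7.34 on the adult, and 7.96, 8.39 and 8.45 on the aged arrays. Fetal values lay below all later ones, adolescent lay above adult, and aged lay above all others. Cxcl12 was 2.42-fold higher in adolescent than in fetal cells (log2 1.28 ± 0.20 SE, adjusted p = 0.000594) and 1.86-fold higher in aged than in adult cells (0.90 ± 0.20, adjusted p = 0.0316). The Cxcl12 difference between aged and adult cells missed the threshold when any of 5 single arrays was left out (adolescent replicate 3 or replicate 2 or 3 of the adult or aged stage, adjusted p up to 0.153). It also missed without the 3 arrays of higher background signal (1.04, adjusted p = 0.0647).

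Cxcr4, the signalling receptor of Cxcl12, read 8.48, 8.23 and 8.26 in fetal cells, 9.47, 9.73 and 9.72 in adolescent, 9.99, 9.34 and 9.33 in adult, and 9.88, 9.85 and 9.92 in aged cells. The adult range spanned the adolescent and aged ones, and all lay above the fetal arrays. The receptor rose 2.49-fold from fetal to adolescent cells (log2 1.32 ± 0.16, adjusted p = 6.55e-05). From adult to aged cells the difference was 0.33 ± 0.16 (adjusted p = 0.254). Without adult replicate 1 that difference was 0.55 (adjusted p = 0.00439), and Cxcr4 fell from adolescent to adult cells (-0.31, adjusted p = 0.0306), so a single array decided both.

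Ackr3, an atypical receptor that takes up Cxcl12, moved most of the 3. Its signals were 5.70, 5.69 and 5.51 in fetal cells, 7.33, 7.74 and 7.74 in adolescent, 7.66, 7.56 and 7.61 in adult, and 8.23, 8.27 and 8.08 in aged cells. Adolescent and adult arrays overlapped, fetal lay below both, and aged lay above both. Ackr3 rose 3.92-fold from fetal to adolescent cells (log2 1.97 ± 0.12, adjusted p = 1.6e-07). It did not move from adolescent to adult cells by more than the spread (0.01 ± 0.12, adjusted p = 0.975), and it rose 1.5-fold from adult to aged cells (0.58 ± 0.12, adjusted p = 0.02). The last call was lost without the 3 arrays of higher background signal (Ackr3 0.51, adjusted p = 0.116) and when replicate 2 or 3 of either stage was left out (adjusted p up to 0.107). From adolescent to adult cells neither Ackr3 nor Cxcl12 was called (Cxcl12 -0.19 ± 0.20, adjusted p = 0.482). Of the 14 endothelial markers, 13 rose from fetal to adolescent cells and 8 rose from adult to aged cells. At the step between, 7 of these markers fell. Their array means were 6.72 to 7.50 in fetal, 8.15 to 8.75 in adolescent, 7.61 to 7.64 in adult and 8.33 to 8.83 in aged cells. Of the 10 pericyte and smooth muscle markers, 7 rose and 1 fell at the first step, 1 rose and 3 fell at the second, and 3 rose and 0 fell at the last. Their array means were 7.74 to 7.91, 8.53 to 8.91, 8.48 to 8.63 and 8.89 to 9.14 in the same order of stages. The part of both lists in the values of Cxcl12 and Ackr3 was not tested.

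**Figure D2:**
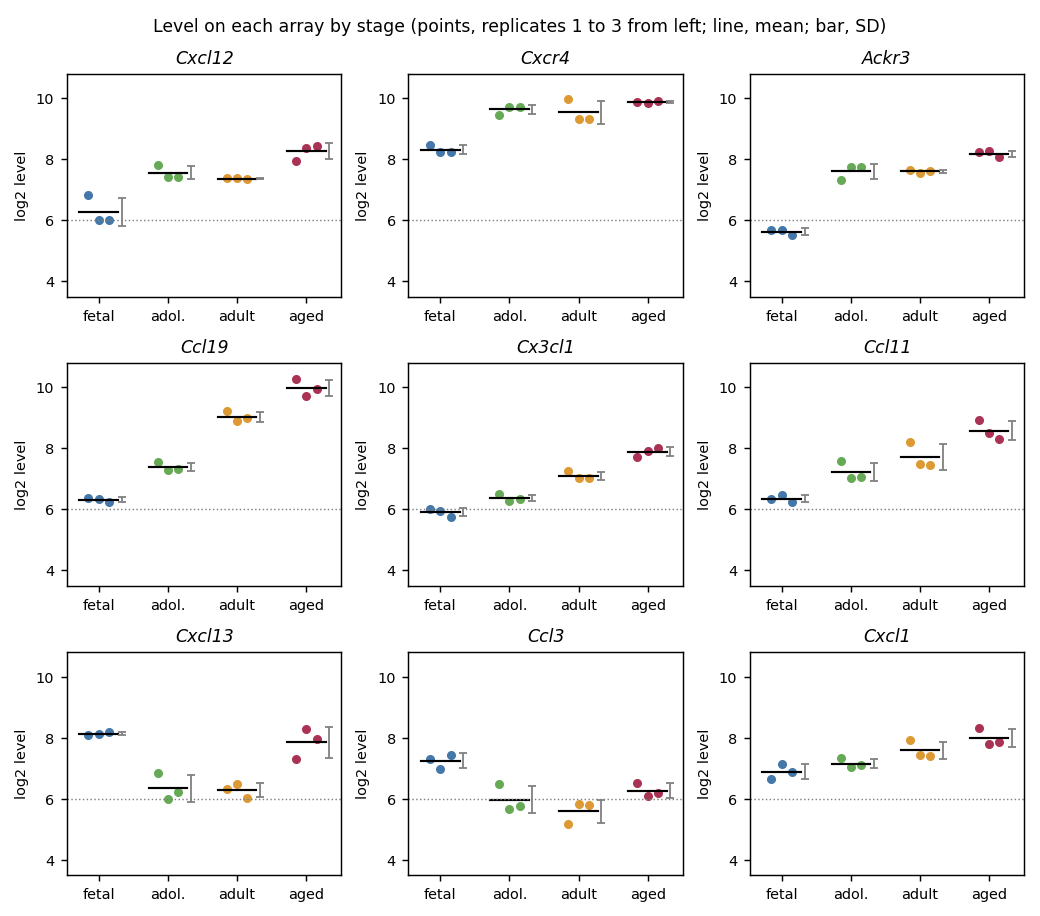
Log2 level (vertical axis) on each array (points, 3 per stage) with the stage mean (line) and SD (bar) for 9 members with long courses across the stages, and a dotted line at the dim threshold of 6. Fetal Ackr3 lies at 5.51 to 5.70 and aged Ackr3 at 8.08 to 8.27, and Cxcl13 is high in fetal and aged cells.

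A pair of ligands rose at every step with no overlap between neighbouring stages. These were Ccl19 and Cx3cl1, 2 of 56 members (3.57%) against 1.16% of all genes. Ccl19 calls dendritic cells and T cells through Ccr7. Cx3cl1 is a membrane-anchored chemokine that can be cut free, and it binds Cx3cr1 on monocytes and macrophages.

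Ccl19 read 6.38, 6.34 and 6.23 in fetal cells, 7.55, 7.30 and 7.34 in adolescent, 8.90 to 9.22 in adult, and 10.27, 9.72 and 9.96 in aged cells. Each stage lay wholly above the one before. It rose by a log2 difference of 1.08 ± 0.14 from fetal to adolescent cells (adjusted p = 0.000106), by 1.64 ± 0.14 to adult cells (adjusted p = 3.98e-05) and by 0.95 ± 0.14 to aged cells (adjusted p = 0.00297). In adult against fetal cells its difference was the largest of the 56 members, 2.72 ± 0.14 (adjusted p = 1.79e-08). Of its 5 probe sets 2 gave identical values on every array, and the 5 had aged means of 9.91 to 9.99. RefSeq lists the copies Ccl19-ps1, Ccl19-ps2 and Ccl19-ps3, so the copy behind the Ccl19 signal is uncertain.

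For Cx3cl1 the arrays gave 6.01, 5.96 and 5.77 in fetal cells, 6.50, 6.29 and 6.36 in adolescent, 7.25, 7.03 and 7.03 in adult, and 7.73, 7.92 and 8.03 in aged cells. Again no neighbouring stages overlapped. The differences of Cx3cl1 were 0.47 ± 0.11 (adjusted p = 0.0113), 0.72 ± 0.11 (adjusted p = 0.00122) and 0.79 ± 0.11 (adjusted p = 0.00278) at the successive steps. The first of these missed the threshold without fetal replicate 3 or adolescent replicate 1 (adjusted p up to 0.0634). Ccl19 and Cx3cl1 both rose from adolescent to adult cells. At that step 7 of 14 endothelial markers fell and 0 rose, and 4 of 10 satellite cell markers rose and 0 fell. Of the 10 pericyte and smooth muscle markers 1 rose and 3 fell. The part of these cell types in the values of Ccl19 and Cx3cl1 was not tested. The receptors of both ligands were measured as well. Ccr7 lay at 6.16 to 6.41 in fetal and 6.56 to 6.96 in aged cells, and Cx3cr1 at 6.40 to 6.70 and 6.24 to 6.58. Cx3cr1 passed in none of the 4 comparisons. Ccr7 was higher in adult than in fetal cells (0.65 ± 0.20, adjusted p = 0.02), which rested on adult replicates 2 and 3 (7.24 and 7.09, against 6.34 on replicate 1). The Ccr7 call was lost when fetal or adult replicate 2 or 3 was left out (adjusted p up to 0.0973) and with the background signal as a covariate. Of the 10 lymphocyte markers, 7 of them dim, 7 were called higher in adult than in fetal cells. Ccr7 is itself 1 of the 7 called. The part of lymphocytes in the Ccr7 value was not tested.

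The promoters of these ligands, 250 bases upstream of the annotated start on the coding strand of GRCm38.p6 from RefSeq, are shown because both genes rose at each step. Ccl19 lies at chr4:42756366-42756615 on the minus strand and Cx3cl1 at chr8:94771930-94772179 on the plus strand. The capitals mark GAAA, any 2 bases and GAAA again, the core of the element bound by interferon-regulated factors, searched on both strands.
Ccl19: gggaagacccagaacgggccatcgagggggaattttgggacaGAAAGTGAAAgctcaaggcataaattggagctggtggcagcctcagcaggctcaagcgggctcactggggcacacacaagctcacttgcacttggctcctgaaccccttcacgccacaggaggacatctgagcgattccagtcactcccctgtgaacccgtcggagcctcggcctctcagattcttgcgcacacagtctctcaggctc
Cx3cl1: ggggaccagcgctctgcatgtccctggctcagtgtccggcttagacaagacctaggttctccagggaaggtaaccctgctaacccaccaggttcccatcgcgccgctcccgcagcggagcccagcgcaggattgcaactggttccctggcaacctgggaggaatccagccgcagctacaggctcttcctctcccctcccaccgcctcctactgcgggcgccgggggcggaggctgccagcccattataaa
The Ccl19 window held 1 match, and the Cx3cl1 window held none of the 3 motifs searched. This motif was found in 6.82% of the 44 windows available for 42 members (Ccl19, Cxcl10 and Cxcl14) and in 2.98% of all 32851 windows. A match describes the letters and not binding.

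Ccl11, a C-C ligand which draws eosinophils, rose at the first and the last step. Its arrays read 6.35, 6.47 and 6.23 in fetal cells, 7.58, 7.03 and 7.07 in adolescent, 8.21, 7.49 and 7.46 in adult, and 8.93, 8.51 and 8.32 in aged cells. Adolescent and adult values overlapped, and aged values lay above all others. Ccl11 rose from fetal to adolescent cells (0.87 ± 0.22, adjusted p = 0.0122) and from adult to aged cells (0.87 ± 0.22, adjusted p = 0.0469). The first call was lost without fetal replicate 3 or adolescent replicate 1 (adjusted p up to 0.059). The second was lost when any of 10 single arrays was left out, all but adolescent and adult replicate 1 (adjusted p up to 0.191). Without the 3 arrays of higher background signal the Ccl11 difference between aged and adult cells was 0.21 (adjusted p = 0.623). From adolescent to adult cells it was 0.49 ± 0.22 (adjusted p = 0.122), or adjusted p = 0.0444 with the replicate number as a block. Its genomic neighbours Ccl2 and Ccl7, which attract monocytes, stayed within a narrow band. Ccl2 lay between 6.17 and 6.91 and Ccl7 between 6.10 and 6.81 over all 12 arrays, and neither passed in any comparison.

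Ccl6 and Ccl9, neighbouring myeloid chemokines on chromosome 11, rose together with Ccr2, the receptor of inflammatory monocytes. Ccl6 read 5.40, 5.64 and 5.18 in fetal cells, 6.69, 6.31 and 6.31 in adolescent, 6.33, 7.15 and 7.09 in adult, and 6.48, 7.50 and 7.29 in aged cells. Fetal values lay below all others, and the 3 postnatal stages overlapped. Ccl6 rose from fetal to adolescent cells (1.03 ± 0.26, adjusted p = 0.0146), a call lost without fetal replicate 3 or adolescent replicate 1 (adjusted p up to 0.0695). Ccl9 was at 5.60 to 5.80 in fetal and 6.32 to 6.85 in adult cells and was higher in adult cells by 0.94 ± 0.23 (adjusted p = 0.00659). Ccr2 stayed dim, with fetal values of 3.89 to 4.04 and aged values of 4.61, 6.04 and 5.74, and was higher in adult than in fetal cells (0.83 ± 0.28, adjusted p = 0.0326). The Ccr2 call was lost when any fetal array or adult replicate 2 or 3 was left out (adjusted p up to 0.124).

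In all 3 of these genes adult replicate 1 and aged replicate 1 were the lowest of their stage. Of the 6 leukocyte markers, Ptprc, Coro1a, Laptm5 and Cd53 had the same pattern. Ptprc was at 5.30, 6.32 and 6.41 on the adult arrays and 5.93, 7.21 and 7.03 on the aged arrays. Cd52 and Srgn did not have it. On the adult arrays Srgn was highest on replicate 1 (10.45, against 9.89 and 9.79), and Cd52 read 6.23, 6.08 and 6.29. Over the whole leukocyte list the array means were 6.20 to 6.24 in fetal, 6.48 to 6.93 in adolescent, 6.52 to 6.98 in adult and 6.81 to 7.67 in aged cells. Of the 6 markers 1, Srgn, rose from fetal to adolescent cells, and Srgn alone rose from adult to aged cells. The 17 macrophage and monocyte markers, Ccr2 and Cx3cr1 among them, averaged 5.77 to 6.46 per array, and 3 rose and 2 fell in adult against fetal cells. Those that rose were Lyz2, Itgam and Ccr2 itself, and those that fell were Cd68 and Mrc1. The part of these markers in Ccl6, Ccl9 and Ccr2 was not tested. Ccr2 was higher in aged than in adult cells without aged replicate 1 (1.12, adjusted p = 0.00254), and with all arrays that call was not made. Without the 3 arrays of higher background signal, Ccl6 (1.06, adjusted p = 0.0141) and Ccl9 (0.93, adjusted p = 0.0247) were also higher in aged than in adult cells.

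Ccl3 and Cxcl13 fell from fetal to adolescent cells and had their highest stage mean in fetal cells. Ccl3, a macrophage chemokine that binds Ccr1, read 7.30, 6.96 and 7.44 in fetal cells, 6.47, 5.66 and 5.75 in adolescent, 5.15, 5.83 and 5.78 in adult, and 6.52, 6.07 and 6.18 in aged cells. Fetal values lay above all later ones. Ccl3 fell from fetal to adolescent cells (-1.28 ± 0.23, adjusted p = 0.00168), and its difference between aged and adult cells was 0.67 ± 0.23 (adjusted p = 0.15). Mast cell markers were also lower after the fetal stage, and 6 of 8 fell from fetal to adolescent cells, with list means of 5.93 to 6.29 on the fetal arrays and 4.53 to 4.98 on the later ones. Their part in the fall of Ccl3 was not tested.

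Cxcl13, which attracts B cells through Cxcr5, fell and then rose again. It read 8.07, 8.12 and 8.18 in fetal cells, 6.84, 5.97 and 6.22 in adolescent, 6.31, 6.48 and 6.03 in adult, and 7.28, 8.28 and 7.96 in aged cells. Aged arrays overlapped the fetal range and lay above every adolescent and adult array. Cxcl13 fell by 1.78 ± 0.25 on the log2 scale from fetal to adolescent cells (adjusted p = 0.00019). From adult to aged cells it rose by 1.57 ± 0.25 (adjusted p = 0.00435), the only member called with at least a 2-fold change at that step (0.777% of all genes). Its receptor Cxcr5 was dim and passed in none of the 4 comparisons.

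The remaining C-C ligands that were not dim moved little. Ccl25, the thymic and gut ligand of Ccr9, was at 6.52 to 6.58 in fetal and 5.98 to 6.15 in adult cells and fell between them (-0.49 ± 0.10, adjusted p = 0.00139). Its other probe set gave -0.71. Ccl5, a T cell and monocyte chemokine, was at 5.77 to 6.02 in fetal and 6.08 to 6.56 in adult cells and was higher in adult cells (0.44 ± 0.12, adjusted p = 0.0118). The Ccl5 call was lost with the background signal as a covariate and when fetal replicate 3 or adult replicate 2 or 3 was left out (adjusted p up to 0.0621).

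The ligands of Cxcr2, which draw neutrophils, include Cxcl1, Cxcl2 and Cxcl3, and of these only Cxcl1 was not dim. Cxcl1 read 6.65, 7.13 and 6.86 in fetal cells, 7.31, 7.02 and 7.09 in adolescent, 7.91, 7.42 and 7.41 in adult, and 8.32, 7.80 and 7.85 in aged cells. Neighbouring stages overlapped except adolescent and adult. Cxcl1 was higher in adult than in fetal cells (0.70 ± 0.18, adjusted p = 0.00806), while its single steps did not pass (adjusted p of 0.439, 0.1 and 0.222). Without adult replicate 1 Cxcl1 was higher in aged than in adult cells (0.58, adjusted p = 0.0211), and without the 3 arrays of higher background signal it was higher in adult than in adolescent cells (0.77, adjusted p = 0.0263). Cxcl2, its dim neighbour, passed only the F-test (adjusted p = 0.0264). It had stage means of 5.45, 5.03, 5.21 and 5.79 in fetal, adolescent, adult and aged cells. Cxcl3 stayed between 4.40 and 4.84 on all 12 arrays, and Cxcr2 itself was dim.

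Cxcl1, Cxcl2 and Cxcl3 lie in 1 run of members on chromosome 5, and their promoters are shown because they share a motif. Whether their courses differed was not tested, and signals near background limit Cxcl2 and Cxcl3. Each window holds the 120 bases before the start on the plus strand of GRCm38.p6 from RefSeq, at chr5:90891125-90891244, chr5:90903779-90903898 and chr5:90785981-90786100. The capitals mark GGG, any 3 bases and TTCC, a form bound by NF-kappaB, on both strands, with overlapping matches joined.
Cxcl1: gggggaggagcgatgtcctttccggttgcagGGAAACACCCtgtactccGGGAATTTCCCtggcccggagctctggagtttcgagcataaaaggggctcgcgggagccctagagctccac
Cxcl2: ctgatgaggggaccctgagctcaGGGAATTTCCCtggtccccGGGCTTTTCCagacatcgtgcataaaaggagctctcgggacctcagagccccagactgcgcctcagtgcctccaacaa
Cxcl3: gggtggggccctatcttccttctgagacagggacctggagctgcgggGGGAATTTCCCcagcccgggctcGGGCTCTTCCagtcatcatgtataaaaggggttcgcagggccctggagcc
All 3 windows contained GGGAATTTCC, starting 71, 97 and 73 bases before the start. Counted over the 250 bases before the start, the motif was present in 9 members (20.5% of member windows against 4.65% of all windows). They were Ccl1, Ccl20, Ccl9, Ccr3, Ccr6, Cxcl1, Cxcl10, Cxcl2 and Cxcl3. Of these only Ccl9, Cxcl1 and Cxcl10 were not dim. Over the same 250 bases the E box CAGCTG, of the kind bound by myogenic factors, was in 7 members (15.9% against 13.0% of windows).

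Of the interferon targets Cxcl9, Cxcl10 and Cxcl11, only Cxcl11 passed in a comparison of stages, and Cxcl9 passed the F-test alone (adjusted p = 0.0304). Cxcl9 and Cxcl10, which attract activated T cells through Cxcr3, are neighbours on chromosome 5 with the dim Cxcl11. Cxcl9 read 6.46, 6.26 and 6.03 in fetal cells, 7.47, 6.30 and 6.21 in adolescent, 7.06, 6.22 and 6.28 in adult, and 7.05, 7.72 and 7.75 in aged cells. Every stage but the fetal had 1 array apart, and the difference between aged and adult cells was 0.99 ± 0.32 (adjusted p = 0.126). Without aged replicate 1 the Cxcl9 difference was 1.21 (adjusted p = 0.0475), and it also passed without adolescent replicate 1 or adult replicate 1. Cxcl10 lay between 5.38 and 6.45 and passed in none of the 4 comparisons with all arrays.

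Cxcl16, a transmembrane ligand of Cxcr6, read 5.12, 5.26 and 4.91 in fetal cells, 5.76, 5.69 and 5.70 in adolescent, 5.64, 5.62 and 5.63 in adult, and 5.80, 6.30 and 6.30 in aged cells. It rose from fetal to adolescent cells (0.62 ± 0.14, adjusted p = 0.00574). From adult to aged cells the difference was 0.50 ± 0.14 (adjusted p = 0.0636), and it passed without aged replicate 1 (0.67, adjusted p = 0.00395) or adult replicate 1. Cxcl14, a homeostatic ligand of skin and other tissues, rose from adolescent to adult cells. From fetal to adolescent cells its difference was 0.18 ± 0.21 (adjusted p = 0.724). Without fetal replicate 1 that difference was 0.49 (adjusted p = 0.0226), so a single array decided whether Cxcl14 rose at the first step. Its arrays read 7.22, 6.38 and 6.16 in fetal cells, 6.59, 6.80 and 6.91 in adolescent, 7.38, 7.60 and 7.48 in adult, and 7.60, 7.40 and 7.45 in aged cells. Fetal replicate 1 also had the highest fibroblast and fibro-adipogenic markers of its stage. Of those 12 markers 4 rose and 6 fell from fetal to adolescent cells, and 1 rose and 4 fell to adult cells. Their part in the values of Cxcl14 was not tested. The adolescent-to-adult difference was 0.72 ± 0.21 (adjusted p = 0.0305), and this Cxcl14 call was lost with the background signal as a covariate (adjusted p = 0.137) and when any adolescent array or adult replicate 2 or 3 was left out (adjusted p up to 0.113). Cxcl17, a mucosal chemokine, was higher in adult than in fetal cells (0.72 ± 0.20, adjusted p = 0.0116). Adult replicates 2 and 3 stood at 6.66 and 6.56 and replicate 1 at 5.93, and that call too was lost with the covariate or without fetal replicate 3 or adult replicate 2 or 3 (adjusted p up to 0.0578).

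Of the 18 signalling receptors, 5 were not dim: Cxcr4, Ccr7, Cx3cr1, Ccr10 and Cxcr3. With all arrays only Cxcr4 was called between neighbouring stages (1 of 18), while 18.8%, 19.8% and 3.5% of all genes were called at the successive steps. Dim genes were called less often (1.66% higher and 2.6% lower, then 3.37% and 0.839%, then 0.363% and 0.154%). Because 13 of the 18 receptors were dim, the low count does not show that the receptors were stable. Ccr10, a skin-homing lymphocyte receptor, stayed between 5.91 and 6.40, and Cxcr3, the receptor of Cxcl9 and Cxcl10, between 5.75 and 6.46. Ackr2, a scavenger of inflammatory C-C ligands, reached its highest signals, 6.15 and 6.27, on adult replicates 2 and 3 and passed in none of the 4 comparisons. Ackr1, the venular receptor, was dim but rose from fetal to adolescent cells (0.85 ± 0.16, adjusted p = 0.00224). It lay at 4.63 to 4.79 in fetal and 5.34 to 6.01 in adolescent cells. Ackr1 belongs to the endothelial list and is itself 1 of the 13 of 14 endothelial markers that rose at this step. The part of endothelial cells in its value was not tested.

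**Figure D3:**
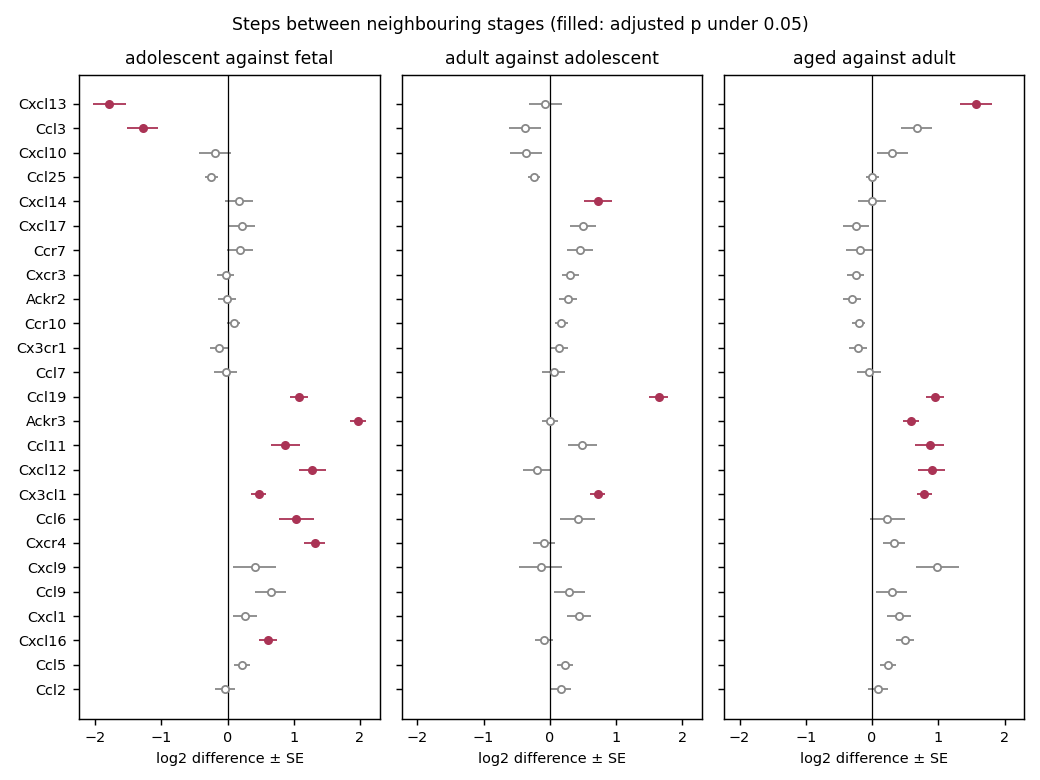
Log2 difference ± SE (horizontal axis) of the 25 members that were not dim at the steps adolescent minus fetal, adult minus adolescent and aged minus adult, with filled points for members that passed (adjusted p under 0.05, limma). The filled points number 10, 3 and 6, and all those at the last 2 steps lie above 0.

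Among the 31 dim members 9 passed at least 1 test and 22 passed none. Cxcl11, a further ligand of Cxcr3, rose from fetal to adolescent cells (0.43 ± 0.13, adjusted p = 0.0333), and Ccl17, a ligand of Ccr4, rose from adolescent to adult cells (0.59 ± 0.15, adjusted p = 0.0184). In adult against fetal cells 8 dim members were higher: Ackr1, Ackr4, Ccl17, Ccl22, Ccr2, Cxcl11, Cxcl15 and Xcl1. That was 25.8% of the dim members, against 18.3% of the 7155 dim genes. Xcl1, which attracts cross-presenting dendritic cells, differed by 0.38 ± 0.14 (adjusted p = 0.0401), and Ccl22, a ligand of Ccr4, by 0.37 ± 0.12 (adjusted p = 0.0305). Ackr4, a scavenger of Ccl19 and Ccl25, differed by 0.34 ± 0.10 (adjusted p = 0.0176) and the lung-expressed Cxcl15 by 0.65 ± 0.16 (adjusted p = 0.00591). With the background signal as a covariate 2 of these 8 calls were kept (Ackr1 and Ccr2), and 2 without the 3 arrays of higher background signal. Of the 17 calls among members that were not dim, 14 and 13 were kept. Leaving out at least 1 single array ended each call of a dim member between stages, except those of Ackr1 and Cxcl15. With the replicate number as a block Cxcl11 missed the threshold in both comparisons (adjusted p = 0.0639 and 0.0605), as did Xcl1 (adjusted p = 0.0533). Ccl17 differed between adult and adolescent cells by 0.25 (adjusted p = 0.393) without those 3 arrays. The 22 others had highest stage means of 3.62 to 5.86: Ccl1, Ccl4, Ccl8, Ccl12, Ccl20, Ccl24, Ccl26, Ccl28, Ccr1, Ccr1l1, Ccr3, Ccr4, Ccr6, Ccr8, Ccr9, Cxcl3, Cxcl5, Cxcr1, Cxcr2, Cxcr5, Cxcr6 and Xcr1.

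**Figure D4:**
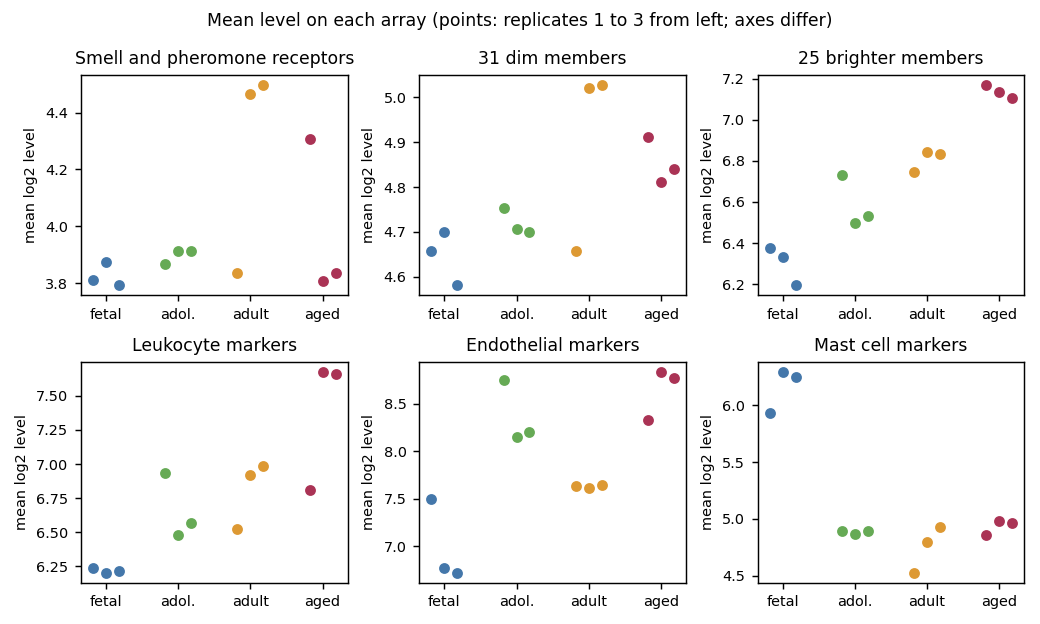
Mean log2 level on each of the 12 arrays (points, vertical axes differ) of the receptors of smell and pheromones used as background, the 31 dim members, the 25 members that were not dim, and the leukocyte, endothelial and mast cell markers. Adult replicates 2 and 3 and aged replicate 1 are higher in background (4.31 to 4.50 against 3.79 to 3.91), and the members that were not dim average 7.11 to 7.17 on the aged arrays.

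Members that neighbour each other could differ in course or share a direction. Of the members, 30 lay in 7 runs of at least 3 neighbours in RefSeq. On chromosome 11, Ccl3 fell while Ccl6 and Ccl9 of the same run rose in adult against fetal cells. On chromosome 8, Cx3cl1 and its dim neighbours Ccl22 and Ccl17 were all called higher in adult than in fetal cells. The calls of Ccl22 and Ccl17 were lost with the background signal as a covariate.

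The machinery around the chemokines was read from 3 companion lists. Beside them, of all genes that were not dim 14.8% rose and 12.1% fell from fetal to adolescent cells, 5.23% rose and 23.2% fell to adult cells, and 4.91% rose and 0.25% fell to aged cells. Of 44 measured genes of signalling downstream of chemokine receptors, 8 rose and 5 fell (18.2% and 11.4%) from fetal to adolescent cells, 0 rose and 10 fell (22.7%) to adult cells, and 2 rose (4.55%) and 0 fell to aged cells. These shares were near those of the genes that were not dim, except that none rose to adult cells. Prex1, which activates Rac downstream of G proteins, rose at the first step by 1.58 ± 0.12 (adjusted p = 9.92e-07), while Tiam1, another Rac activator, fell (-1.12). Grk3, a kinase that desensitises receptors, fell from adolescent to adult cells (-0.76 ± 0.16, adjusted p = 0.00552). Gnai1, the inhibitory G protein subunit of the kind chemokine receptors couple to, rose from adult to aged cells (1.26 ± 0.18, adjusted p = 0.00267). The medians over the list were 0.02, -0.20 and 0.16 at the 3 steps, against 0.01, -0.16 and 0.10 over all genes that were not dim and 0.02, 0.03 and -0.01 over all genes.

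The next list held 30 measured genes of NF-kappaB, which induces inflammatory chemokines, and of its inputs. It also includes genes that hold NF-kappaB back, such as Nfkbia, so a rise in the list is not a rise in induction. From fetal to adolescent cells 14 rose and 2 fell (46.7% and 6.67%). The medians over this list were 0.34, 0.00 and 0.17 at the 3 steps. Il17ra, a receptor of interleukin 17, had the smallest adjusted p (2.89 ± 0.10, adjusted p = 7e-10). From adolescent to adult cells 2 rose and 3 fell (6.67% and 10%), and Nfkbiz, a nuclear cofactor of NF-kappaB, rose by 1.18 ± 0.18 (adjusted p = 0.000972). From adult to aged cells 3 rose (10%) and 0 fell: Nfkbiz (0.74, adjusted p = 0.0413), Nfkbia, the inhibitor of NF-kappaB (0.51 ± 0.10, adjusted p = 0.0134), and Il6, which was dim (0.62, adjusted p = 0.0461).

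Of 26 measured genes whose proteins bind, cut or present chemokines, 7 rose and 9 fell (26.9% and 34.6%) from fetal to adolescent cells, 1 rose and 6 fell (3.85% and 23.1%) to adult cells, and 2 rose (7.69%) and 0 fell to aged cells. The medians over these genes were 0.00, -0.22 and 0.12. Sdc4, a heparan sulphate proteoglycan and satellite cell marker, rose by 2.19 ± 0.13 at the first step (adjusted p = 8.63e-08). Rarres2, which encodes chemerin, rose by 1.52 at the first step and by 0.69 from adult to aged cells (adjusted p = 0.0266). Ccrl2, a chemerin-binding relative of chemokine receptors, rose by 0.99 at the first step, and Mmp2, a protease that can cut Cxcl12, by 1.26. The sheddase Adam17, which can release Cx3cl1, fell from adolescent to adult cells (-0.73, adjusted p = 0.000965).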

How the data were processed

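The deposited values were log2 signals from single-colour Affymetrix arrays of amplified RNA from sorted cells, with RMA and Affymetrix Expression Console 1.2.1.20 named in the submitters' processing notes. The genome build is not given in the sources used here, and scanner files were not used. The number of arrays limits the precision. Of 35556 probe sets 21789 carried 1 symbol, and the brightest was kept for each of 19938 genes.

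All 12 arrays entered 1 fit in limma 3.58.1 (R 4.3.3) with a mean per stage, moderated variances, 8 residual degrees of freedom and Benjamini-Hochberg adjustment over all genes. Errors after ± are standard errors of a log2 difference. An exact rank test of 3 against 3 arrays cannot go under 0.1. The fit was tested on simulated data with 200 changed genes. The members and the lists were chosen with earlier results of these data known. Every member that was not dim is named, as is every dim member that passed a test, and up to 4 genes of a companion list per comparison.

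The labels state no pairing of equal replicate numbers. Deviations from the stage means correlated between equal numbers at 0.362, 0.317 and 0.239 in adolescent and adult arrays. Between replicates 2 and 3 of these stages, unequal numbers gave 0.293 and 0.24. Unequal pairs with replicate 1 of either stage gave -0.336 to -0.264. The range was -0.435 to 0.362 over all 18 equal-number pairs (median -0.0015) and -0.416 to 0.447 over the 36 unequal ones (median -0.011). Promoter windows and neighbours came from RefSeq tables of GRCm38.p6, with windows for 42 of 56 members. Alternatives covered array scaling, a floor, the probe set kept, array weights, a background covariate, the replicate block and leaving out arrays.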

Additional observations from a re-analysis of the deposited data

How the results depend on the processing

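Only the members' calls are covered here. At the steps to adolescent, to adult and to aged cells, and in adult against fetal, 6 of 12, 1 of 4, 0 of 6 and 9 of 25 calls held under every alternative. With array weights, whose fit gave a convergence warning, the counts were 21, 41, 44 and 44, and 54 for the F-test. Of all genes 40.3%, 75.7%, 79.1%, 77.4% and 95.1% were then called, and Ccl2 reversed in aged against adult (-0.13, adjusted p = 0.0429). A floor at 6 gave 13 in adult against fetal (30.1% of all genes) and 12 in the F-test (32.8%). The background covariate gave 2 in adult against adolescent (13.5%), and fitting only the arrays of both stages gave 3 in aged against adult (0.883%). Averaging replicates 2 and 3 was chosen after seeing the data, as was leaving out the 3 arrays of higher background. With that averaging the counts were 7, 1, 0 and 10, and 11 in the F-test (7.38%, 1.62%, 0.01%, 17.7% and 17.2% of all genes). Leave-one-out counts ranged over 8 to 14, 2 to 27, 3 to 22, 16 to 39 and 19 to 40. With the replicate number as a block they were 11, 6, 5, 24 and 22. The block added Ccl11 and Ccl22 in adult against adolescent and Cxcr6 in adult against fetal. It removed Cxcl12 (adjusted p = 0.0567) in aged against adult, Cxcl11 in adolescent against fetal, and Cxcl11 and Xcl1 in adult against fetal. Members counted as dim numbered 14 at a threshold of 5 and 44 at 7. The causes were not tested. Signals near background limit the dim members.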

Other observations

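Chemokines of the Ccl21 and Ccl27 families were read only by probe sets that carry several symbols, so they belong to no member gene. The Ccl21 sets, which report ligands of Ccr7, had stage means of 6.39, 6.84, 7.19 and 8.09 in fetal, adolescent, adult and aged cells. Those of the Ccl27 genes, ligands of Ccr10, had fetal means of 7.44 to 7.80 and aged means of 8.56 to 8.94. Which gene copy gave these signals cannot be told apart, and they were not tested.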
